A study of Mus musculus with 9 samples.

Results

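The genes described here encode the nuclear subunits of the oxidative phosphorylation complexes in C2C12 cells, a mouse myoblast line. They were chosen by name, as protein-coding genes whose symbol begins with Nduf followed by A, B, C, S or V and a digit, with Uqcr, with Cox4 to Cox8 or with Atp5, or is Sdha, Sdhb, Sdhc, Sdhd or Cyc1. A mean of at least 1 CPM (counts scaled to a library size of 1000000 reads) over the 9 libraries was also required. The symbol patterns matched 95 genes, of which 85 were protein coding, and 80 passed the minimum, out of 47728 genes listed in all. They comprise 35 genes of complex I, 4 of complex II, 9 of complex III, 15 of complex IV and 16 of complex V. The 80th, Atp5s, is named after the ATP synthase but is not one of its subunits. Ndufa4 was counted with complex IV, where its protein resides, although it was first assigned to complex I. The 5 genes below the minimum were all alternative forms of complex IV subunits. Cox4i2 and Cox8c had 0 reads, and Ndufa4l2, Cox6b2 and Cox7b2 had 10, 5 and 3 reads over the 9 libraries. The names leave out a few genes with a part in these complexes, such as Usmg5, Atpif1, Ndufab1 and Cycs.

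Oxidative phosphorylation passes electrons from NADH and succinate through complexes I and II to coenzyme Q, then through complex III and cytochrome c to complex IV, which reduces oxygen. Complexes I, III and IV pump protons across the inner mitochondrial membrane, and complex V, the ATP synthase, uses the gradient to make ATP. Most subunits are encoded in the nucleus and imported, while mitochondrial DNA encodes a few membrane subunits at the centre of complexes I, III, IV and V. In heart and skeletal muscle some small subunits of cytochrome c oxidase (complex IV) are replaced by tissue isoforms, Cox6a2 for Cox6a1, Cox7a1 for Cox7a2 and, in rodents, Cox8b for Cox8a.

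Cells were of 3 genotypes, control cells and cells with either Fkbp4 or Fkbp5 knocked down. Fkbp4 and Fkbp5 encode immunophilins, peptidyl-prolyl isomerases that serve as co-chaperones of Hsp90. Each genotype was collected at days 0, 3 and 5, where day 0 is the change from growth medium with fetal bovine serum to differentiation medium with insulin, transferrin and selenium. Polyadenylated RNA was sequenced from 1 library per genotype and day. The labels do not state how the genes were knocked down, how many clones or cultures stand behind a genotype, or whether the 3 days of a genotype came from separate cultures. Tests therefore used the 3 days of a genotype, or the 3 genotypes of a day, in place of replicates, and their p-values measure only the spread between these libraries.

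Libraries held 3932372 to 5568486 counted reads, of which the 80 genes took 1.52% to 1.88%. Of the 80 genes, 76 had at least 50 reads in every library. Mitochondrially encoded genes took 1.775% to 5.01% of reads in 8 libraries and 10.06% in the Fkbp5 knockdown at day 5. Fkbp4 stood at 59.9, 27.0 and 23.9 CPM at days 0, 3 and 5 of its own knockdown and at 240, 143 and 137 CPM in the control. Fkbp5 stood at 4.45, 3.17 and 4.59 CPM in its knockdown and at 20, 7.32 and 14.7 CPM in the control. All 7 markers of myoblasts and muscle were present, with a summed level of 1154 to 1192 CPM at day 0 and 9832 to 13435 CPM at day 5. All 4 white adipocyte markers were at 0, as were Cidea of brown adipocytes and Nppa of cardiomyocytes. Markers of osteoblasts and chondrocytes, of immune cells, of endothelium and of neurons summed to at most 4.18 CPM in a library. The brown adipocyte markers summed to 9.47 to 12.0 CPM at day 0 and 37.6 to 86.3 CPM at day 5. Nearly all of this was 1 gene, Dio2, at 8.99 to 11.3 CPM at day 0 and 37.1 to 86.3 CPM at day 5. Ucp1 reached at most 0.262 CPM and Elovl3 at most 0.799 CPM. The cardiomyocyte markers summed to 5.59 to 24.8 CPM, mostly from Nppb (4.58 to 13.2 CPM) and Myh6 (0 to 17.6 CPM). CPM values below are divided by the TMM normalisation factor of the library. In bulk RNA, fewer cells making a transcript and less of it per cell cannot be told apart.

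The promoters of the isoform pairs are shown because Cox6a2 and Cox8b had the largest changes by day of the 80 genes. RefSeq windows on GRCm38.p6 cover 250 bases before and 50 bases after the annotated start of transcription, and 66 of the 80 genes have one. Capitals mark matches on either strand to GCATGCG (core of the NRF1 motif), CCGGAAG (ETS), CAGCTG (an E-box favoured by myogenic factors) and TATAAA. Matches to AAGATGG (YY1) and to the MEF2 motif were counted too, and the windows shown hold none. The muscle form Cox8b (chr7:140900397-140900696, minus strand) and its counterpart Cox8a (chr19:7217567-7217866, minus strand) read as follows.
Cox8b: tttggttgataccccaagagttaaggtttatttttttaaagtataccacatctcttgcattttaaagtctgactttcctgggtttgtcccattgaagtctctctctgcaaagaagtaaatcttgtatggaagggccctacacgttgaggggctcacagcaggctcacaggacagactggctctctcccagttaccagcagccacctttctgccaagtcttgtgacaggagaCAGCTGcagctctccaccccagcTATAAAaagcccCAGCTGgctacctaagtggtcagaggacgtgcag
Cox8a: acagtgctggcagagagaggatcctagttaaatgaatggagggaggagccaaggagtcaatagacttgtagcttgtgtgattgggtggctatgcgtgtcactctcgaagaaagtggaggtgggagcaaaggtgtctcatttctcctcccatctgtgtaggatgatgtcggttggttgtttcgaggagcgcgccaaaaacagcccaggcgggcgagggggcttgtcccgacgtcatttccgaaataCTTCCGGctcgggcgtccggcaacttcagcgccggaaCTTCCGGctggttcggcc
The muscle form Cox7a1 (chr7:30183921-30184220, plus strand) and its counterpart Cox7a2 (chr9:79759804-79760103, minus strand) are next, with Cox6a1 (chr5:115348909-115349208, minus strand), the counterpart of Cox6a2, last.
Cox7a1: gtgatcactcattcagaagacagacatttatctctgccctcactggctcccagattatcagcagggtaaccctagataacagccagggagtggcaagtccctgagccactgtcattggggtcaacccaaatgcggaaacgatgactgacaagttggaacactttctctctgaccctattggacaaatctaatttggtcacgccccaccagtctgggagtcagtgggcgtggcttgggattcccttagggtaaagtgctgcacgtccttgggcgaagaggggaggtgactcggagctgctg
Cox7a2: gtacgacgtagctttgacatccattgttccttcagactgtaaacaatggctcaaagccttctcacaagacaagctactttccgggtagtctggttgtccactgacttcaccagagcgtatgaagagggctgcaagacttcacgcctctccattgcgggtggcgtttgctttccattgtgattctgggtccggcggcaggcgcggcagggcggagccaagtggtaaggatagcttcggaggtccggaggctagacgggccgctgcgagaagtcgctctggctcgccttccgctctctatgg
Cox6a1: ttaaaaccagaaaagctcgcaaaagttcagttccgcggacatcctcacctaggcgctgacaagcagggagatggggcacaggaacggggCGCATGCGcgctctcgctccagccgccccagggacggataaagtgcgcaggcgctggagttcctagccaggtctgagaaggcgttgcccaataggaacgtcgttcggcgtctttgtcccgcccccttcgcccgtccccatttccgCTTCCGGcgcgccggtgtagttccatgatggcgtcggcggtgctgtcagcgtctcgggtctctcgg
The Cox8b window held 2 copies of CAGCTG and 1 TATAAA, while the Cox8a window held 2 ETS matches, written as CTTCCGG on the strand shown. The TATAAA and 1 CAGCTG of Cox8b and 1 ETS match of Cox8a lie after the annotated start of transcription. The Cox6a1 window held 1 ETS match and an NRF1 core that reads on both strands, and the Cox7a1 and Cox7a2 windows held no capitals. Over all 66 windows the NRF1 core was found in 10 (15.2%), against 4.49% of 17492 protein-coding genes with a window. The ETS letters were found in 15 (22.7%, against 11.9%) and the YY1 letters in 10 (15.2%, against 6.37%). CAGCTG was found in 6 (9.09%, against 15.1%) and TATAAA in 6 (9.09%, against 13.3%). The wider E-box CANNTG, of which CAGCTG is one form, was found in 47 (71.2%, against 68.8%) and the MEF2 motif in 0, against 2.92%. These are counts of letters in a window and are not evidence of binding.

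The complexes differed in level per kilobase of transcript, and the medians of complexes IV and V were the highest in every library. The median gene of complex V had a mean level of 349 CPM per kilobase, that of complex IV 326, of complex III 206, of complex I 131 and of complex II 94.5. Within complex V the range ran from 87.7 CPM per kilobase for Atp5l, a small membrane subunit, to 1093 for Atp5b, the catalytic beta subunit. In complex IV it ran from 11.1 for the muscle form Cox7a1 to 983 for Ndufa4. Complex I ranged from 43.6 (Ndufa12) to 592 (Ndufb9), complex II from 52.0 (Sdhc) to 210 (Sdhd) and complex III from 129 (Uqcrc1) to 607 (Uqcrq). The summed level of all 80 genes lay between 15287 CPM (Fkbp4 knockdown, day 5) and 19174 CPM (Fkbp5 knockdown, day 0). It did not order the libraries by day: from day 0 to 3 to 5 the Fkbp4 knockdown summed to 15784, 16391 and 15287 CPM, against 19174, 16301 and 16143 CPM in the Fkbp5 knockdown, and 17432, 18917 and 16309 CPM in the control.

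The muscle isoforms Cox6a2 and Cox8b went from near absence at day 0 to a sizeable part of their pairs by day 5 in all 3 genotypes, whereas Cox7a1 stayed low. Cox6a2 (chr7:128205435-128206387) stood at 1.4, 39.8 and 73.2 CPM at days 0, 3 and 5 of the Fkbp4 knockdown, at 1.05, 15.9 and 43.0 CPM in the Fkbp5 knockdown, while the control had 0, 40.4 and 54.2 CPM. All 6 later libraries were above all 3 of day 0, where only 7, 4 and 0 reads had been counted. Summed over genotypes, its level was 39.6 times as high at day 3 as at day 0 (95% counting interval 21.9 to 79.9) and 69.4 times as high at day 5 (38.6 to 140). Counting intervals here cover the error of counting reads only. Cox6a2 averaged 0.817 CPM and Cox8b 0.22 CPM over the 3 libraries of day 0, so both met the minimum of 1 CPM only through days 3 and 5. Their differences between day 0 and the later days are therefore given as values, with no test.

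Cox8b (chr7:140898945-140900446) stood at 0, 14.1 and 23.5 CPM in the Fkbp4 knockdown, at 0, 13.8 and 21.4 CPM in the Fkbp5 knockdown and at 0.66 CPM (3 reads), 17.9 and 19.8 CPM in the control. The groups of day 0 and of the later days did not overlap. A count of 0 allows up to 3 reads. At day 0 that is 0.622 CPM in the Fkbp4 knockdown and 0.763 CPM in the Fkbp5 knockdown, before division by the TMM factor. Summed over genotypes the level of Cox8b was 67.5 times as high at day 3 as at day 0 (22.8 to 330) and 96.4 times as high at day 5 (32.7 to 470). Cox7a1 (chr7:30184144-30186078) was detected throughout but stayed between 3.00 and 5.46 CPM, and summed over genotypes its level at day 5 was 1.19 times that of day 0 (0.819 to 1.72). The interval of Cox7a1 at day 5 reaches from a small decrease to a rise under that of either other muscle form.

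As a share of its pair, counted as reads per base of exon, Cox6a2 made up 0.501%, 14.3% and 28.8% at days 0, 3 and 5 of the Fkbp4 knockdown. The Cox6a2 share was 0.344%, 6.84% and 17.7% in the Fkbp5 knockdown. In the control it was 0%, 12.3% and 20.8%, where 3 reads at day 0 would have given 0.213%. It averaged 0.282% ± 0.256 at day 0 (SD, n = 3) and 16.8% ± 7.58 at days 3 and 5 (SD, n = 6). The Cox8b share averaged 0.195% ± 0.338 at day 0 (SD, n = 3) and 11.7% ± 3.52 later (SD, n = 6). By library it reached 16.7% in the Fkbp4 knockdown, 12.9% in the Fkbp5 knockdown and 14.4% among control reads at day 5. The Cox7a1 share was 3.27% ± 0.342 at day 0 (SD, n = 3) and 3.61% ± 0.853 later (SD, n = 6), a difference that did not pass (exact permutation test, two-sided, p = 0.536, adjusted over the 3 pairs 0.536). Even at day 5 the ubiquitous form therefore held most reads of each pair in every library.

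**Figure D1:**
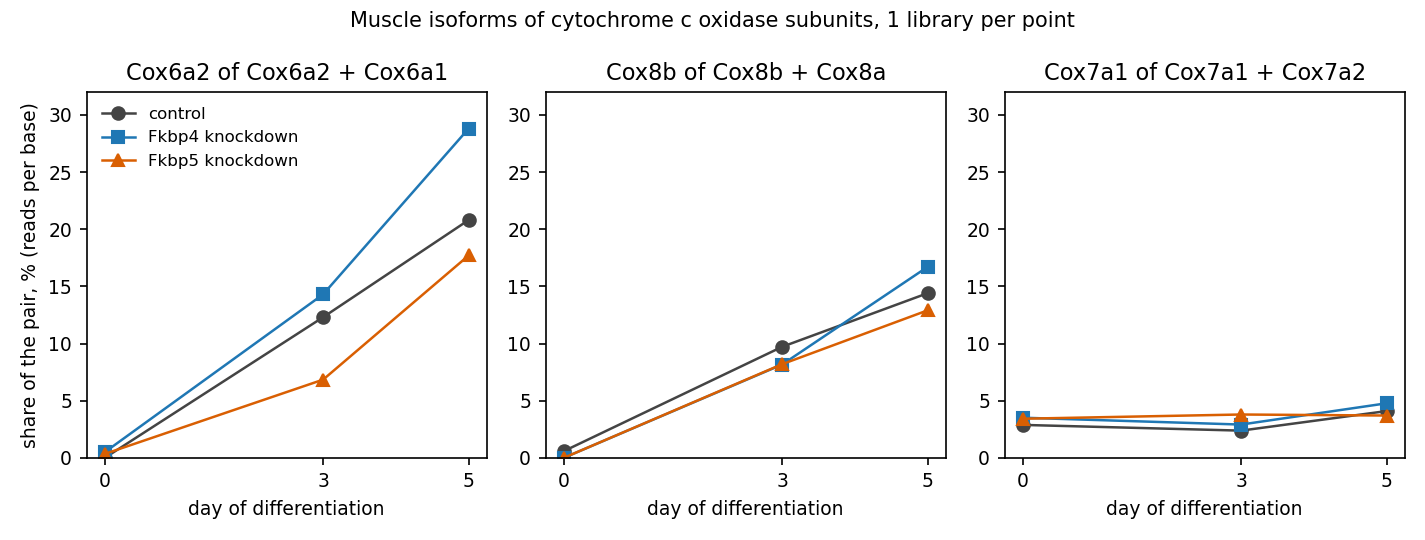
Share of each muscle isoform in the reads per base of its pair (vertical axis, %) against the day of differentiation, with 1 library per point and 1 line per genotype. Cox6a2 reached 17.7% to 28.8% and Cox8b 12.9% to 16.7% at day 5, while Cox7a1 stayed between 2.38% and 4.77% throughout.

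The counterparts did not share one course. Cox6a1 stood at 287, 246 and 187 CPM in the Fkbp4 knockdown, at 313, 223 and 206 CPM in the Fkbp5 knockdown and at 319, 297 and 213 CPM in the control. Its 3 libraries of day 5 were below all of day 0, and it fell by 0.60 on the log2 scale (SE 0.10, edgeR adjusted p = 0.000532). Cox8a stood at 191, 273 and 202 CPM, 210, 266 and 249 CPM, and 193, 287 and 202 CPM in the same order. Cox8a rose at day 3 (0.48, SE 0.10, edgeR adjusted p = 0.00247) and did not pass at day 5 (0.14, SE 0.10, adjusted p = 0.275). Cox7a2 passed at neither day, with −0.01 and −0.13 (SE 0.13 each). The genes whose profile over the 9 libraries was most like the mean of Cox6a2, Cox7a1 and Cox8b (Pearson's r of log2 CPM, as a description) were Tnnt2 (0.9964), Myl1 (0.9963), Myl4 (0.9961), Cd55 (0.9954) and Tmem182 (0.9952). All 5 were lower in each day 0 library than in any later one, and the 9 points share that split into 2 groups.

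A smaller share of subunit genes than of all genes changed over the days, and in both directions. At day 3 against day 0, 19 of the 80 genes were called by edgeR (23.8%), against 52.2% of all 12844 genes tested. Of the 80, 15 were higher and 4 lower, where 26.4% and 25.8% of all genes were. At day 5, 33 were called (41.2%, against 57.9%), 16 higher and 17 lower, where 29.3% and 28.6% of all genes were. Both counts include Cox6a2 and Cox8b, and without them 17 of 78 (21.8%) and 31 of 78 (39.7%) were called. The median change was 0.00 at day 3 and −0.08 at day 5 on the log2 scale, beside 0.00 and 0.01 over all genes. The calls kept without each of the 9 libraries in turn were 12 of 19 at day 3 and 17 of 33 at day 5. Single-gene day changes below are among those kept unless a library is named.

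Complex I, the entry point of electrons from NADH, had genes called in each direction. The core subunits Ndufs1, Ndufv1 and Ndufs3 rose by day 5. Ndufs1, the iron-sulfur subunit of the electron input module, stood at 103, 138 and 148 CPM at days 0, 3 and 5 of the Fkbp4 knockdown, at 86.7, 113 and 127 CPM in the Fkbp5 knockdown and at 90.3, 113 and 150 CPM in the control. It rose by 0.60 (SE 0.09, edgeR adjusted p = 0.000248), with no overlap between day 0 and the later days. Ndufv1, which binds the flavin, rose by 0.52 at day 5 (SE 0.09, edgeR adjusted p = 0.000733), and Ndufs3 by 0.37 (SE 0.08, adjusted p = 0.00305). Since 25.4% of the 31-base words in Ndufs3 exons also occur elsewhere among annotated genes, part of its reads is uncertain.

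Other core subunits of complex I fell or did not pass. Ndufs8, an iron-sulfur subunit, fell by 0.33 at day 5 (SE 0.10, edgeR adjusted p = 0.0130), a call that depended on the Fkbp4 knockdown at days 0 and 5 and on the control at day 5, since leaving out any 1 of these ended it (adjusted p up to 0.0747 over all alternatives). Ndufv2 (−0.28, SE 0.12) and Ndufs7 (0.08, SE 0.10) did not pass. Among the 28 accessory subunits 5 rose and 4 fell, with a median of −0.06. Ndufv3, an accessory subunit of the flavin module, stood at 59.1, 109 and 88.8 CPM in the Fkbp4 knockdown, at 83.3, 142 and 140 CPM in the Fkbp5 knockdown and at 62.3, 125 and 100 CPM in the control. It rose at day 3 (0.89, SE 0.09, edgeR adjusted p = 2.40e-05) and at day 5 (0.67, SE 0.10, adjusted p = 0.000138). Ndufa13 (0.67, SE 0.09, with 33.2% of words shared), Ndufa3 (0.60, SE 0.15) and Ndufa10 (0.35, SE 0.09) rose by day 5 as well. Ndufc2, a subunit of the membrane arm, fell by 0.50 (SE 0.11, adjusted p = 0.00262). Ndufa12 (−0.53, SE 0.15, with 20.7% of words shared) fell too. That call ended when the library of day 0 of the Fkbp5 knockdown or of day 5 of the control was left out.

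Complex II, which enters electrons from succinate, and complex III each had 1 subunit higher and 1 lower at day 5. Sdha, the flavoprotein, stood at 174, 216 and 245 CPM in the Fkbp4 knockdown, at 162, 197 and 207 CPM in the Fkbp5 knockdown and at 149, 192 and 225 CPM in the control, and rose by 0.48 (SE 0.09, edgeR adjusted p = 0.000934). Sdhd, a membrane anchor, stood at 256, 259 and 196 CPM, 301, 241 and 223 CPM, and 306, 314 and 230 CPM, and fell by 0.41 (SE 0.10, adjusted p = 0.00560). Day 5 and day 0 did not overlap in either gene, so the 2 subunits moved in opposite directions. Sdhb (−0.02) and Sdhc (−0.01) did not pass. In complex III the Rieske iron-sulfur protein Uqcrfs1 rose (0.31, SE 0.09) and cytochrome c1, Cyc1, fell (−0.36, SE 0.10). The Uqcrfs1 call was lost without the day 0 library of the Fkbp4 knockdown or of the control, and the Cyc1 call when day 0 of the Fkbp5 knockdown or day 5 of the control was left out. The core proteins Uqcrc1 and Uqcrc2 did not pass.

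In complex IV, 4 genes fell by day 5 and 1 rose besides Cox6a2 and Cox8b, and Ndufa4 had the most negative fitted change of the 80 genes. Ndufa4 stood at 471, 304 and 309 CPM in the Fkbp4 knockdown, at 696, 349 and 360 CPM in the Fkbp5 knockdown and at 654, 453 and 404 CPM in the control. All 6 later libraries were below all 3 of day 0, and it fell by 0.72 at day 3 (SE 0.11, edgeR adjusted p = 0.000350) and by 0.75 at day 5 (SE 0.11, adjusted p = 0.000207). Cox5a, which together with Cox4 forms an early part of the assembling complex, fell by 0.42 at day 5 (SE 0.09, edgeR adjusted p = 0.00295). Cox4i1 fell by 0.37 (SE 0.10, adjusted p = 0.00889), a call that ended when day 0 of the Fkbp5 knockdown or day 5 of the control was left out. Cox7a2l, a factor that joins complexes III and IV, was the 1 other gene called higher (0.32, SE 0.11, adjusted p = 0.0319), and its call was lost without the day 0 or day 5 library of the Fkbp4 knockdown or of the control.

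Complex V, the ATP synthase, had 6 of its 16 genes lower at day 5, 1 higher and a median of −0.23. Its share of genes called was 43.8%, under the 57.9% of all genes. Atp5c1, the gamma subunit of the rotating stalk, stood at 420, 389 and 339 CPM in the Fkbp4 knockdown, at 528, 397 and 366 CPM in the Fkbp5 knockdown and at 497, 457 and 388 CPM in the control. Day 0 and day 5 did not overlap, and Atp5c1 fell by 0.40 (SE 0.10, edgeR adjusted p = 0.00552). The peripheral stalk genes Atp5f1 (−0.64, SE 0.18) and Atp5o (−0.28, SE 0.10, with 49.6% of words shared) were lower too. So were the c-ring genes Atp5g1 (−0.60, SE 0.23) and Atp5g3 (−0.27, SE 0.10) and the membrane subunit Atp5j2 (−0.36, SE 0.10). Each of these 5 calls ended when day 0 of the Fkbp5 knockdown was left out. They ended as well without day 5 of the same knockdown (Atp5f1, Atp5g1, Atp5g3 and Atp5o), its day 3 (Atp5g1), day 5 of the control (Atp5g3, Atp5j2 and Atp5o), its day 3 (Atp5g1, Atp5g3 and Atp5o) or its day 0 (Atp5g3). Among Fkbp4 knockdown libraries, Atp5g1 and Atp5g3 depended on day 3, Atp5g3 and Atp5o on day 5, and Atp5g3 on day 0. The 1 gene called higher was Atp5d of the rotating stalk (0.30, SE 0.09), which ended without day 5 of the Fkbp4 knockdown or day 0 of the control. The catalytic subunits of the head did not pass, with Atp5a1 at 0.04 and Atp5b at −0.22 (SE 0.10 each). Atp5s, which is no subunit, rose by 0.66, a call that ended without day 0 or day 5 of either knockdown.

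**Figure D2:**
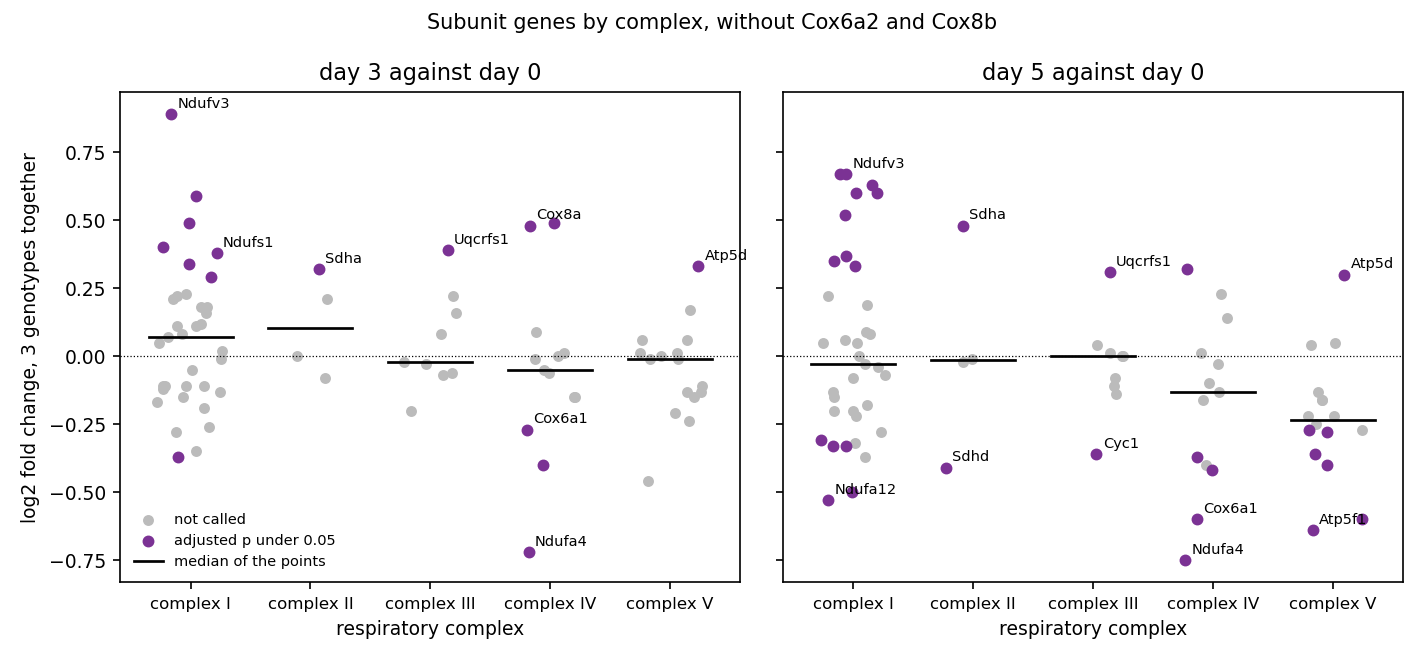
Log2 fold change of each subunit gene at day 3 (left) and day 5 (right) against day 0, from edgeR over the 3 genotypes, by respiratory complex. Purple points passed an adjusted p of 0.05, bars are medians, and Cox6a2, Cox8b and Atp5s are left out. At day 5 the points of complex V lie mostly below 0, while complex I spreads from −0.53 (Ndufa12) to 0.67 (Ndufv3).

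Related gene lists were counted at day 5 in the same way, to be read against the 29.3% of all genes called higher and the 28.6% called lower. Of 13 mitochondrially encoded subunits 12 were higher (median 1.83). The 12 include mt-Nd3 and mt-Nd4l, whose day 5 reads came nearly all from cells with Fkbp5 knocked down (values further below). The calls of mt-Nd3 and mt-Nd4l therefore do not show a rise shared by the genotypes. The summed level of the 13 subunits was 96.5% to 130% of that of the 80 nuclear genes at day 0 and 235% to 646% at day 5. The highest ratio was in the Fkbp5 knockdown, and over the 6 that share at most 20% of words with other genes the sums at days 0 and 5 were 9555 and 18871 CPM (Fkbp4 knockdown), 16247 and 31131 CPM (Fkbp5 knockdown) and 10232 and 22694 CPM (control). Of 51 assembly factors of the complexes 12 were higher and 9 lower (median 0.04), a share of 41.2% called against 57.9% of all genes. Of 14 tricarboxylic acid cycle enzymes 4 were higher and 3 lower (median 0.06). Of 11 genes of import and the outer membrane 1 was higher and 7 lower (median −0.42), and of 14 regulators of mitochondrial biogenesis 1 and 3 (median −0.06). Of the 2 carriers, cytochrome c and the acyl carrier protein, 1 was lower. Mitochondrial ribosomal proteins were lower in 50 of 77 (median −0.45) and cytoplasmic ribosomal proteins in 78 of 83 (median −0.98), with 0 higher in either list.

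Between days 3 and 5 only 1 of the 80 genes was called (1.25%, against 6.16% of all genes tested and 3.77% called higher), and the median change was −0.09. This was Cox6a2, with 39.8, 15.9 and 40.4 CPM at day 3 and 73.2, 43.0 and 54.2 CPM at day 5 in the Fkbp4 knockdown, the Fkbp5 knockdown and the control. The 3 libraries of day 5 were above those of day 3, and the difference was 0.87 (SE 0.23, edgeR adjusted p = 0.0469). The call was lost without any 1 of the 6 libraries of days 3 and 5 and with DESeq2 or limma voom. All 16 genes of complex V had a negative fitted difference between days 3 and 5 (median −0.14).

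In the Fkbp4 knockdown, Ndufa1 and Atp5l were lower than in the control at every day. Ndufa1 (chrX:37187588-37191163), a small membrane-bound accessory subunit needed for the assembly of complex I, stood at 29.6, 20.6 and 21 CPM at days 0, 3 and 5 of the Fkbp4 knockdown and at 48.0, 62.1 and 50.9 CPM in the control. In the Fkbp5 knockdown it stood at 54.7, 45.3 and 53.3 CPM. The 3 Fkbp4 knockdown libraries were below all 6 others. Ndufa1 was 2.27-fold lower (log2 −1.19, SE 0.16, edgeR adjusted p = 0.0127). The single-day log2 ratios were −0.70 (95% counting interval −1.01 to −0.39) at day 0, −1.59 (−1.92 to −1.27) at day 3 and −1.28 (−1.64 to −0.93) at day 5. The Ndufa1 call was lost without the day 3 or day 5 library of either genotype, at an unchanged direction (adjusted p up to 0.637 over all 19 alternatives, 12 of which kept the call).

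Atp5l (chr9:44912557-44920742), a membrane subunit at the dimer interface of the ATP synthase, stood at 33.0, 36.3 and 31.3 CPM in the Fkbp4 knockdown, 54.6, 65.4 and 46.5 CPM in the control and 65.2, 50.3 and 47.0 CPM in the Fkbp5 knockdown. Again the 3 Fkbp4 knockdown libraries were the lowest of the 9. Atp5l was 1.65-fold lower (log2 −0.72, SE 0.13, edgeR adjusted p = 0.0338). The call was kept in 8 of 19 alternatives, and it was lost without any 1 of the 6 libraries of the 2 genotypes and without the Fkbp5 knockdown day 5 library. These were the 2 of 80 genes called in the Fkbp4 knockdown (2.5%), where 1.09% of all genes were called and 0.825% were called lower. The 18 catalytic core genes, from the flavin and iron-sulfur subunits to the ATP synthase head, held 0 calls by edgeR. Of the 18, 4 were at an unadjusted p under 0.05, and their median was −0.07. That unadjusted threshold was passed by 30 of the 80 genes and by 2103 of all 12844 genes tested.

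Below the threshold, most subunit genes had slightly lower values in the Fkbp4 knockdown than in the control. The fitted difference was negative in 68 of 80 and the median was −0.19, beside 0.02 over all genes. By complex the median was −0.20 for I, −0.09 for II, −0.13 for III, −0.21 for IV and −0.18 for V. Against the control of the same day, without a test, the median log2 ratio was −0.21 at day 0, −0.28 at day 3 and −0.10 at day 5, with 66, 66 and 55 genes below 0. Leaving out 1 library at a time moved the median of the 80 genes between −0.24 and −0.12. Cox7c, a small subunit of complex IV, stood at 30.9 CPM against 88.7 CPM in the control at day 3 (log2 −1.52, 95% counting interval −1.79 to −1.26), but 49.7 against 55.9 CPM at day 0 and 35.9 against 37.1 CPM at day 5. The control value of day 3 was the highest of the 9 libraries, and 24.5% of Cox7c words are shared with another gene.

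**Figure D3:**
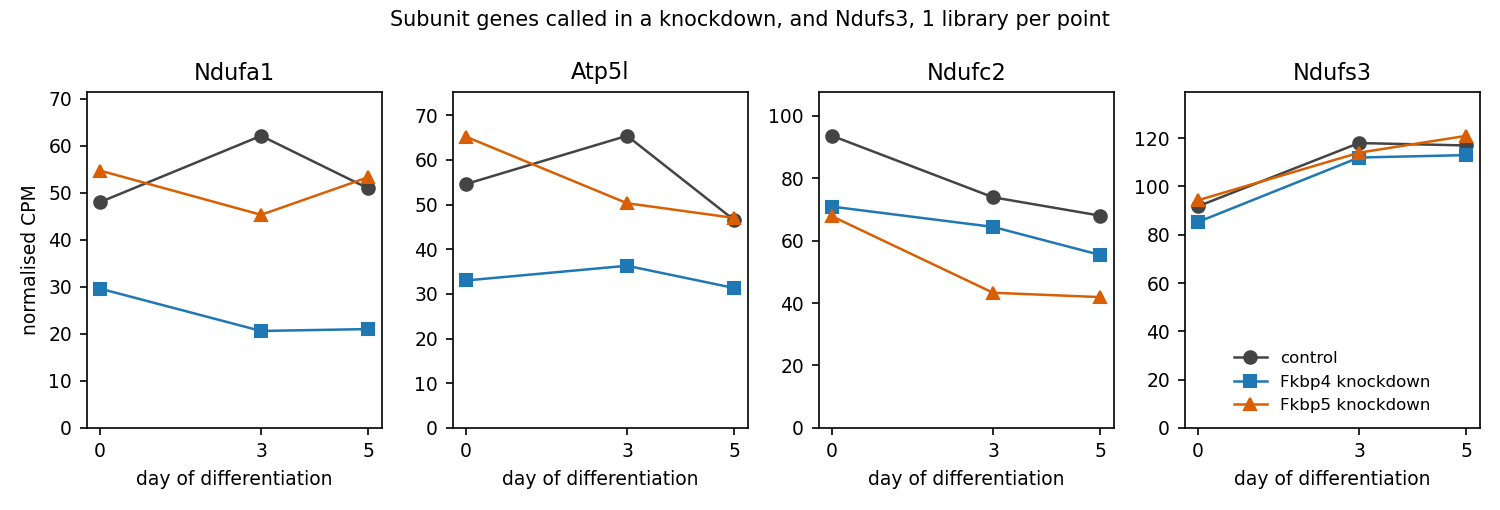
TMM-normalised CPM (vertical axis, from 0) of the 3 genes called in a knockdown against the control and of Ndufs3, a core gene not called, by day, with 1 library per point. Ndufa1 and Atp5l are lowest in the Fkbp4 knockdown at each day, Ndufc2 is lowest in the Fkbp5 knockdown, and the 3 lines of Ndufs3 lie close together.

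Short transcripts held most of the lower values in the Fkbp4 knockdown. Subunit transcripts are short, with a median of 723 bases against 2652 for the nuclear protein-coding genes tested. Of the 54 subunit genes under 1000 bases, 52 had a negative difference (median −0.21), and of the 26 longer ones, 16 (median −0.08). Over all nuclear protein-coding genes the medians were −0.11 below 1000 bases (1220 genes) and 0.04 above (10234 genes). Cytoplasmic and mitochondrial ribosomal proteins, which also have short transcripts, had medians of −0.23 and −0.16. Spearman's rho between the difference and transcript length was 0.50 over the 80 subunit genes and 0.19 over the other 11374 nuclear genes, across genes that share the same libraries. In the Fkbp5 knockdown the same values were 0.03 and −0.10. The part of transcript length in the Fkbp4 knockdown values was not tested.

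**Figure D4:**
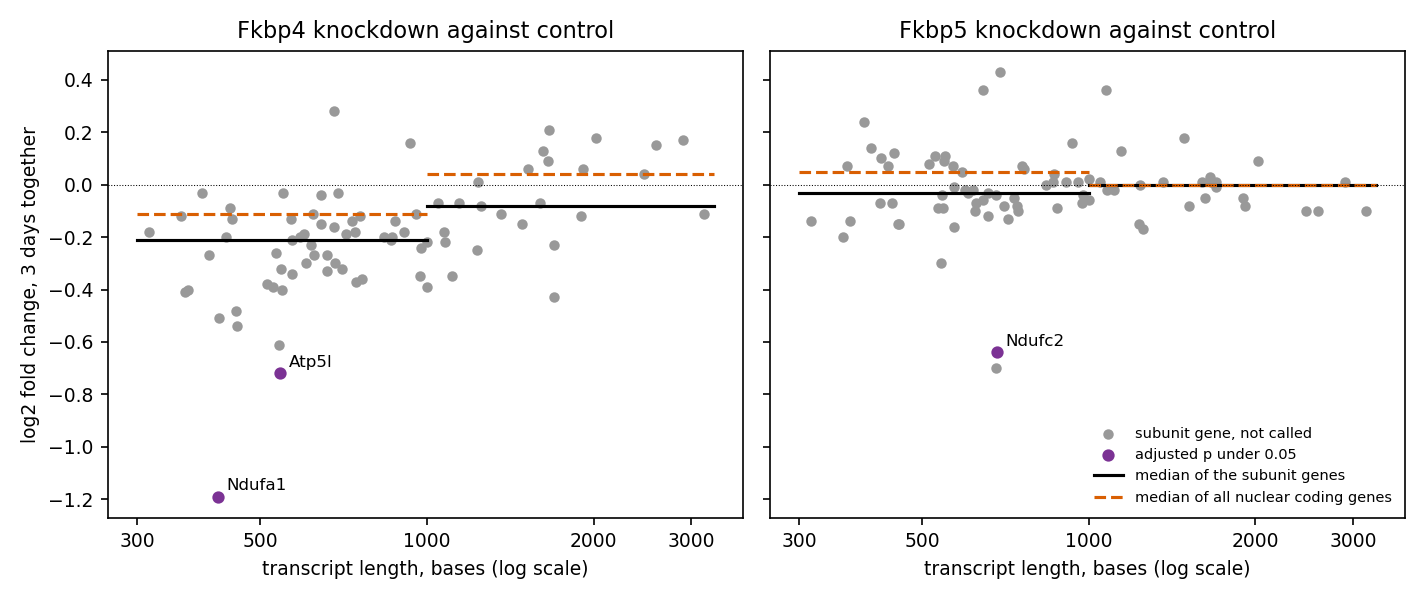
Log2 fold change of the subunit genes in each knockdown against the control (vertical axis) by transcript length in bases (log axis). Solid lines are the subunit medians and dashed lines those of all nuclear protein-coding genes, below and above 1000 bases. In the Fkbp4 knockdown the shorter subunit genes centre on −0.21 and the longer on −0.08, and in the Fkbp5 knockdown both lie near 0.

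In the Fkbp5 knockdown the 1 subunit gene called against the control was Ndufc2 (1.25% of 80, against 2.09% of all genes called and 1.4% called lower). Ndufc2 (chr7:97400003-97407802) stood at 67.8, 43.3 and 41.9 CPM at days 0, 3 and 5 of the Fkbp5 knockdown, at 93.6, 73.9 and 68.0 CPM in the control and at 70.9, 64.4 and 55.4 CPM in the Fkbp4 knockdown. It was lowest in the Fkbp5 knockdown at each of the 3 days, and the 3 libraries were below the 3 control libraries. Ndufc2 was 1.55-fold lower (log2 −0.64, SE 0.11, edgeR adjusted p = 0.0211). Leaving out any 1 control library, or day 3 or day 5 of the Fkbp5 knockdown, ended the Ndufc2 call, which was kept in 11 of 19 alternatives. Both knockdowns were compared with the same 3 control libraries. In the Fkbp4 knockdown the difference of Ndufc2 was −0.30 (SE 0.11, adjusted p = 0.218). The catalytic core genes held 0 calls in the Fkbp5 knockdown by edgeR, with 0 at an unadjusted p under 0.05 and a median of −0.04. That unadjusted threshold was passed by 4 of the 80 genes and by 2027 of all 12844 genes tested. Over all 80 genes the median was −0.02, beside 0.00 for all genes. Cox6a2 differed by −0.70 (SE 0.28, adjusted p = 0.25), and of the 7 muscle markers 1, Ckm, was lower (−1.10), with a median of −0.56. The part of the muscle markers in the Cox6a2 value was not tested.

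The single days of the Fkbp5 knockdown differed in sign, in the subunit genes and in ribosomal protein genes. Against the control of the same day, 64 of 80 subunit genes were above 0 at day 0 (median log2 ratio 0.11), 70 were below 0 at day 3 (median −0.23) and 45 were above 0 at day 5 (median 0.03). The medians over all genes tested were 0.00 at each day. Those of mitochondrial ribosomal proteins were 0.11, −0.17 and 0.08 at days 0, 3 and 5, and those of cytoplasmic ribosomal proteins 0.24, −0.11 and 0.14. All 9 genes of complex III were above 0 at day 0 and below 0 at day 3. The change of the knockdown effect from day 0 to the later days was negative in 73 of 80 genes, with a median of −0.22 beside 0.01 over all genes. By edgeR 0 of the 80 were called in that test, where 0.0389% of all genes were, with 4 at an unadjusted p under 0.05 (Atp5g1, Atp5f1, Ndufb4 and Cox6a2). With no low-count filter 1 was called, and with DESeq2 size factors or nuclear protein-coding genes only 0 were. The control day 3 library had the highest summed subunit level of the control, and the Fkbp5 knockdown day 0 library the highest of all 9. In the Fkbp4 knockdown the same test called 0 of 80 by edgeR, also where 0.0389% of all genes were, with 3 at an unadjusted p under 0.05 and a median of 0.00.

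**Figure D5:**
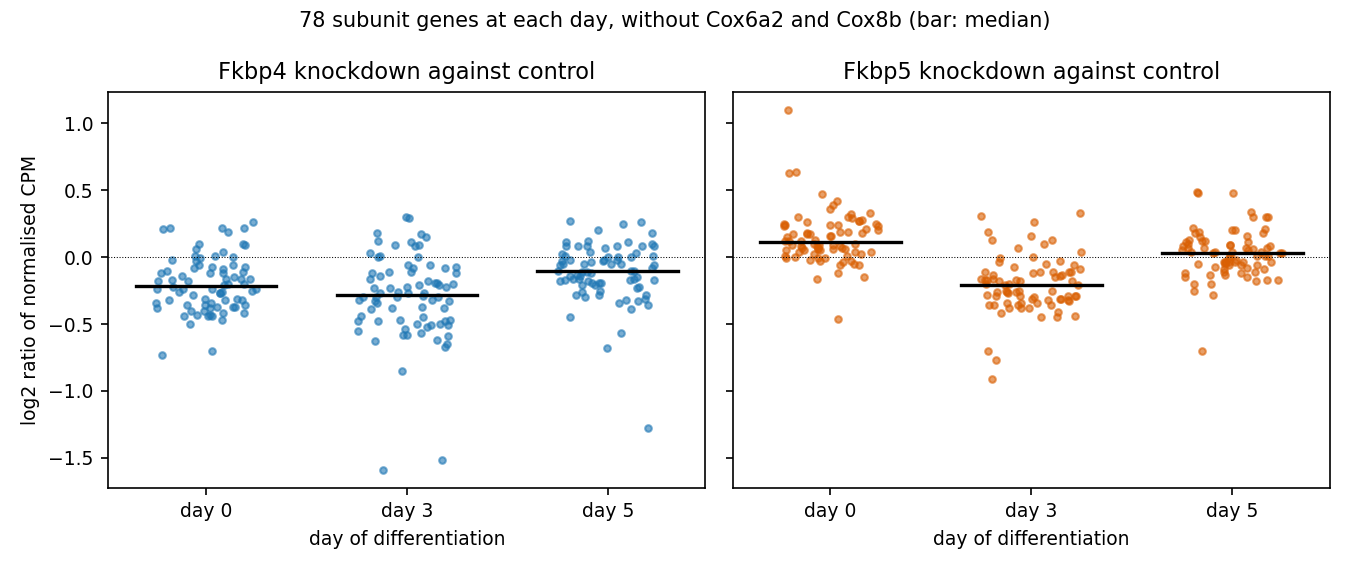
Log2 ratio of normalised CPM between a knockdown and the control library of the same day for 78 subunit genes (points), without Cox6a2 and Cox8b, with the median as a bar. In the Fkbp4 knockdown the bar lies below 0 at each day. In the Fkbp5 knockdown it lies above 0 at day 0, below 0 at day 3 and near 0 at day 5.

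The c-ring of the ATP synthase is encoded by 3 genes that make the same mature protein, and their balance differed in 1 library. Atp5g1 stood at 202 CPM at day 0 of the Fkbp5 knockdown, against 94.7 CPM in the control and 87.3 CPM in the Fkbp4 knockdown of that day, a ratio to the control of 2.14 (log2 1.10, 95% counting interval 0.92 to 1.27). It then made up 13.8% of the summed c-ring level per base of transcript, and 5.92% to 8.81% in the other 8 libraries. On the same scale the other 2 genes made up 34.6% to 38.8% (Atp5g2, with 40.2% of words shared) and 50.2% to 57.6% (Atp5g3). Averaged over the 3 days Atp5g1 did not pass in the Fkbp5 knockdown (0.43, SE 0.23, edgeR adjusted p = 0.404).

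Between the knockdowns, 14 of 80 subunit genes were called (17.5%, against 12.8% of all genes). In the Fkbp5 knockdown relative to the Fkbp4 knockdown 13 were higher (6.81% of all genes were) and 1 was lower (6.03%), and the median was 0.20 beside −0.01 over all genes. The 13 were 6 genes of complex I, 2 of complex III, 2 of complex IV and 3 of complex V. By transcript length, 11 of the 54 subunit genes under 1000 bases were called (20.4%), 10 higher and 1 lower. Of all 1220 nuclear protein-coding genes under 1000 bases, 19.2% were called, 188 higher and 46 lower. Among genes of 1000 bases or more, 3 of 26 subunit genes were called (11.5%), against 13.1% of 10234. The 18 catalytic core genes held 0 calls by edgeR, with 1 at an unadjusted p under 0.05. That unadjusted threshold was passed by 28 of the 80 genes and by 3788 of all 12844 genes tested. Ndufa1 (1.11, SE 0.16, edgeR adjusted p = 0.00288) and Atp5l (0.69, SE 0.13, adjusted p = 0.00951) had the largest differences of those called higher. Next came Atp5e, the epsilon subunit of the rotating stalk, at 293, 238 and 230 CPM in the Fkbp5 knockdown, 167, 171 and 159 CPM in the Fkbp4 knockdown and 224, 268 and 217 CPM in the control. The 2 knockdowns did not overlap, and Atp5e was 1.53-fold higher in the Fkbp5 knockdown (log2 0.61, SE 0.11, edgeR adjusted p = 0.00802). These 3 calls were kept without each of the 9 libraries in turn. All 3 were lost when the 3 libraries of day 5 were left out together, and Atp5l also without those of day 0.

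The other 11 calls were each lost without at least 1 library, and the number called ranged from 4, without the day 5 library of either knockdown, to 20, without the Fkbp5 knockdown day 3 library. It was 6 without the Fkbp4 knockdown day 0 or day 3 library and 9 without the Fkbp5 knockdown day 0 library. The supercomplex factor Cox7a2l (0.53, SE 0.11), the flavin module subunit Ndufv3 (0.51, SE 0.09), Ndufa7 (0.50, SE 0.11) and the hinge protein of complex III, Uqcrh (0.49, SE 0.10), were higher by edgeR at adjusted p of 0.00778 to 0.0157. Uqcrh stood at 383, 388 and 347 CPM in the Fkbp5 knockdown, 253, 298 and 248 CPM in the Fkbp4 knockdown and 343, 405 and 307 CPM in the control. The 2 knockdowns did not overlap in Uqcrh, and the control values overlapped those of the Fkbp5 knockdown. The remaining 6 were Atp5mpl (0.48), Ndufb3 (0.43), Ndufs4 (0.42), Uqcrq (0.41), Cox7b (0.41) and Ndufa2 (0.33), with SE of 0.09 to 0.12 and adjusted p of 0.00992 to 0.0489. Without day 5 of the Fkbp4 knockdown all of these 10 but Atp5mpl were lost, and without day 5 of the Fkbp5 knockdown all but Cox7a2l. Ndufa7, Ndufb3, Ndufs4, Uqcrq, Cox7b and Ndufa2 were also lost without day 0 of either knockdown or day 3 of the Fkbp4 knockdown, Cox7a2l and Uqcrh without day 0 of the Fkbp4 knockdown, and Atp5mpl without its day 3. Control libraries also decided Uqcrq, Cox7b and Ndufa2 (any 1 of the 3) and Ndufs4 (day 3 or day 5).

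The 1 subunit gene lower with Fkbp5 than with Fkbp4 knocked down was Cox6a2 (−0.98, SE 0.27, edgeR adjusted p = 0.0407). At day 3 it stood at 15.9 against 39.8 CPM (log2 −1.33, 95% counting interval −1.74 to −0.94) and at day 5 at 43.0 against 73.2 CPM (−0.77, −1.03 to −0.51). Cox8b stood at 13.8 against 14.1 CPM and at 21.4 against 23.5 CPM, and its difference of −0.08 (SE 0.29) did not pass. The Cox6a2 call was lost without any 1 Fkbp4 knockdown library, without day 3 or day 5 of the Fkbp5 knockdown, and with DESeq2. Of the 7 muscle markers, 3 were lower in the same comparison (Myh3, Ckm and Acta1) and the median was −0.78. Summed muscle markers were 5647 against 7831 CPM at day 3 and 9832 against 13435 CPM at day 5. Their part in the Cox6a2 difference was not tested.

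Transcript length and ribosomal protein genes moved with this comparison too. Subunit genes under 1000 bases had a median of 0.23 and longer ones 0.08, and all nuclear protein-coding genes 0.17 and −0.04. Of 83 cytoplasmic ribosomal proteins 25 were higher (median 0.34), and of 77 mitochondrial ones 8 were higher and 1 lower (median 0.15). Of 51 assembly factors 4 were higher and 0 lower, so 7.84% were called, against 12.8% of all genes. Coa3, which acts in the synthesis and insertion of the catalytic subunit of complex IV, differed by 0.97 (SE 0.11, edgeR adjusted p = 0.000808), Coa6 by 0.64, Uqcc2 by 0.54 and Sdhaf2 by 0.40. Coa3 was also the 1 of 51 assembly factors called in the Fkbp4 knockdown against the control (−0.86, SE 0.11, edgeR adjusted p = 0.0103). It stood there at 42.8, 46.0 and 48.9 CPM, and the control had 81.4, 88.0 and 80.8 CPM. Of 11 genes of import and the outer membrane, Tomm20 was higher (0.37) and Tomm40 lower (−0.40). Mitochondrially encoded subunits were higher in 8 of 13 between the knockdowns and in 4 of 13 in the Fkbp5 knockdown against the control. Of the latter, mt-Nd2 (0.64, SE 0.12) and mt-Cytb (0.59, SE 0.11) were above the control at each of the 3 days, while mt-Nd3 and mt-Nd4l stood at 594 and 989 CPM in the Fkbp5 knockdown day 5 library and at most at 4.10 CPM in the others. The tricarboxylic acid cycle, biogenesis regulator and carrier lists (14, 14 and 2 genes tested) held 0 calls in any knockdown comparison by edgeR. Between the knockdowns 1, 4 and 0 of their genes were at an unadjusted p under 0.05, beside 3788 of all 12844 genes. Against the control 0 were.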

How the data were processed

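Polyadenylated RNA of C2C12 cells was sequenced from 9 libraries (3 genotypes at days 0, 3 and 5, 1 library each). The values the authors deposited are raw counts of reads, listed by Ensembl gene. Per the submitters' processing notes, CASAVA 1.8, HISAT2 2.0.2, Subread, featureCounts 1.4.6 and mm10 were used, while how reads with several alignments were counted is not given in the sources used here. Of 47728 identifiers, 47309 matched GENCODE mouse release 21 and 419 did not. Members and lists were chosen with earlier results of these data known.

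Counts were fitted with edgeR 4.0.16 in R 4.3.3 (filterByExpr, 12844 genes, TMM, quasi-likelihood, additive terms for genotype and day, residual degrees of freedom 4, common biological coefficient of variation 0.126). Whether a knockdown effect differed between day 0 and the later days came from an interaction term (residual degrees of freedom 2). Benjamini and Hochberg adjustment ran over all genes tested, and a call is an adjusted p under 0.05. The fit was also run on simulated counts, drawn independently for each library with fixed changes by genotype and by day. That run cannot show how calls behave where days or genotypes stand in for replicates. SE was derived as the size of the log2 fold change over the root of its F statistic. Since the replicate number is the day, the day term is the pairing block. Word sharing is the percent of 31-base words of a gene's exons found in other genes. Alternatives used DESeq2 1.42.0, limma voom 3.58.1, other scalings, no filter, subsets of libraries, and, chosen after seeing the data, principal transcript lengths for the isoform shares.

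Named by rule were the isoform pairs, Cox4i1, Cox4i2, Ndufa4, Ndufa4l2, the c-ring, the catalytic core, Ndufa1, Atp5l and Ndufc2, every member called in a knockdown comparison, the 8 largest called changes per direction and day contrast, and list genes called in a knockdown comparison (at most 5 a list). Cox7c, Atp5d, Atp5j2, Atp5o, Ndufa10 and Ndufb4 were named after their values were seen. The result of a further member is not reported here.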

Additional observations from a re-analysis of the deposited data

How the results depend on the processing

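Against the main counts, members called in the Fkbp4 knockdown against the control (2) came to 12 with no low-count filter, 6 with DESeq2, 4 among nuclear protein-coding genes only, 9 in the 6 libraries of the 2 genotypes, 1 without day 0, 0 without day 3 and 0 without day 5, and 0 to 7 without 1 library. In the Fkbp5 knockdown (1) they came to 3 with no filter, 0 without day 3, 0 without day 5 and 0 to 1 without 1 library. Between the knockdowns (14) they came to 9 in 6 libraries, 4 without day 0, 0 without day 5 and 4 to 20 without 1 library. Between days 3 and 5 (1) they came to 4 with no filter, 0 with DESeq2, 0 with limma voom, 0 with no genotype term and 0 to 3 without 1 library. The change of the Fkbp5 knockdown effect (0) gave 1 with no filter. Without the replicate block (no day term), 0 members were called in each of the 3 knockdown comparisons, since the day differences then enter the error. The cause of the other shifts was not tested. The day 3 and day 5 counts stayed within 1.5 times of 19 and 33 under all settings, at 14 to 22 and 22 to 36 without 1 library. Without 1 library the later minus day 0 share ranged from 14.1 to 18.5 percentage points for Cox6a2 and from 10.5 to 12.2 for Cox8b. The planned exact permutation test gave both an adjusted p of 0.0357 with all libraries and 0.0536 when a library was left out, except 0.0268 without day 5 of the Fkbp4 knockdown or day 3 of the Fkbp5 knockdown. It supports nothing here, since both genes met the CPM minimum only through the later days. The Cox7a1 share passed in no setting. No named change reversed its direction: of the named gene results, 3418 kept their call status, 29 gained a call and 206 lost it. Depth limits Cox6a2 and Cox8b at day 0, where each had at most 7 reads in a library.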

Other observations

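Genes of the complexes that the symbol patterns leave out were looked at after the values of the members were seen. Usmg5, a small subunit of the ATP synthase, stood at 118, 137 and 123 CPM at days 0, 3 and 5 of the Fkbp4 knockdown, at 219, 158 and 156 CPM in the Fkbp5 knockdown and at 173, 203 and 131 CPM in the control. Its values in the Fkbp4 knockdown were below those of the Fkbp5 knockdown at each day, and the difference between the knockdowns did not pass (0.49, SE 0.15, edgeR adjusted p = 0.0547). Atpif1, the inhibitor of the ATP synthase, stood at 79.9, 66.8 and 57.1 CPM, 115, 72.7 and 69.5 CPM, and 95.5, 81.4 and 69.2 CPM in the same order. It fell by 0.56 at day 5 (SE 0.11, edgeR adjusted p = 0.000932).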
